A study of Mus musculus with 12 samples.

Results

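The 35 genes described here are the hypoxia-inducible transcription factors (HIFs), the enzymes that sense oxygen for them, and HIF target genes that are not enzymes of glycolysis. They were taken by symbol from the 28948 genes of the RPKM matrix (reads per kilobase of exon, scaled to the size of the library), through their Ensembl identifiers on mouse assembly GRCm38, and all 35 were found. They fall into 4 HIF subunits, 5 genes that control HIF stability or activity, and 26 targets. All 35 passed the filter on low values, 1 RPKM or more in 3 or more libraries, which left 11245 genes, and 34 of them reached 1 RPKM in every library. Ndrg1 was the exception: it was under 1 RPKM in the 3 empty vector libraries and passed through the other groups, so that its difference from the empty vector was partly fixed by the filter.

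The cells were 3T3-L1 adipocytes, which are fat cells formed in culture from a fibroblast-like line of Swiss mouse embryos. Foxp1, a forkhead transcription factor, was overexpressed constitutively and compared with an empty vector control, and was lowered with a short hairpin RNA (Foxp1 shRNA) and compared with a scrambled shRNA control, with 3 libraries in each of the 4 groups. Every group was differentiated with insulin (5 µg/ml), the PPAR-gamma ligand troglitazone (10 µM), dexamethasone (1 µM) and the phosphodiesterase inhibitor isobutyl methylxanthine (0.5 mM), then had insulin alone from day 4 and growth medium from day 6. The labels used here name neither the promoter of the construct, nor whether cells were clones or pools, nor the oxygen level, cell density or day at harvest. They do not say whether replicates were separate cultures, so the p-values measure the spread between these libraries, which may be technical.

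Between 35252019 and 38450003 reads per library fell in genes, as recovered from the steps of the values. Foxp1 followed the labels: it averaged 6.56 ± 0.710 RPKM in overexpressing cells and 1.8 ± 0.0349 RPKM in empty vector cells, and 1.11 ± 0.0335 RPKM with the Foxp1 hairpin and 2.18 ± 0.0624 RPKM with the scrambled hairpin (SD, n = 3 each). Of 10 mature fat cell markers 9 were measured, and all 9 fell in overexpressing cells, where their summed level was 3633 to 3915 RPKM, against 9243 to 9453 RPKM with the empty vector. With the Foxp1 hairpin 5 of them rose and 3 fell, with sums of 9344 to 10030 RPKM, against 6725 to 6979 RPKM with the scrambled hairpin. Of 8 macrophage markers 2 were measured, Cd68 and Cd14, with Ptprc and Adgre1 at or near 0 and sums of at most 7.62 RPKM in any library, and of 6 endothelial markers none was, with sums of at most 0.583 RPKM. Of 10 preadipocyte markers 8 were measured, with 5 up and 3 down in overexpression and 1 up and 4 down in knockdown, and their sums were 468.2 to 478.9 RPKM in overexpressing cells, against 322.2 to 352.0 RPKM with the empty vector. Of 8 skeletal muscle markers 2 were measured, with Acta1 up and Des down in both comparisons, and the summed level was 44.6 to 50.7 RPKM in overexpressing cells, against 24.3 to 25.1 RPKM with the empty vector. Here measured means past the filter above, and rose or fell means past the test given below. In bulk RNA, fewer cells of a type and less RNA per cell cannot be told apart, and the part of these marker changes in the results below was not tested. Overexpression replicate 3 stood apart, with 13.1% of its reads from the mitochondrial genome, beside 9.99% and 9.65% in the other overexpression libraries and 8.61% to 9.35% with the empty vector.

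HIFs are pairs of an oxygen-sensitive alpha subunit (Hif1a, Epas1 or Hif3a) and the stable partner Arnt. When oxygen is present, the prolyl hydroxylases Egln1, Egln2 and Egln3 mark the alpha subunits, the Vhl ubiquitin ligase binds the mark and the subunits are destroyed, while Hif1an hydroxylates another site and blocks the binding of coactivators. Stability of the protein, rather than the amount of alpha subunit RNA, is the usual point of control, so RNA levels of the subunits do not report HIF activity. HIFs bind DNA at a short core, ACGTG or GCGTG. In fat tissue the pathway is best known for its activity in obesity, where enlarged fat cells become poorly oxygenated, and for its actions on fibrosis, blood vessel growth and lipid storage.

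Promoter windows from RefSeq (assembly GRCm38.p6), covering 250 bases before and 50 after a gene's start, were matched for 28 of the 35 genes. The 7 without a window were Epas1, Plod2, Angptl4, Bnip3l, Kdm4b, Ndrg1 and Zfp395. Both cores were searched on both strands, so that the palindrome CACGTG counts on each strand. A core lay in at least 1 window of 25 of the 28 genes, and among all 8362 tested genes with a window the share was 69.6%. By window, 43.8% of all 32851 windows held one. Of the matched targets 19 of 20 had a core, and of the matched HIF and oxygen-sensing genes 6 of 8 did. None was found for Hif1an, Vhl and Vldlr, which says only that these letters are not in these windows. A match is a description of the sequence and not a measured binding site. The 4 windows shown are those of an oxygen sensor and 2 targets with large changes in opposite directions in the 2 experiments (Egln3, P4ha1 and Ankrd37), and of Selenbp1, which fell in both. Each is written from 5′ to 3′ on the gene's strand, and capitals mark the cores and their reverse complements.
Egln3 (chr12:54203825-54204124, minus strand): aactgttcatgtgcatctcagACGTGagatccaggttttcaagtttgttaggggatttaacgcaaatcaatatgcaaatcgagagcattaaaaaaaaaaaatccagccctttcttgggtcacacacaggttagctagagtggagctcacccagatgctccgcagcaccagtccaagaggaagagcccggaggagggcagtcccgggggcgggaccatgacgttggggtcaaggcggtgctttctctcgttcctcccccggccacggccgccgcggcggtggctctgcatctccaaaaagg
P4ha1 (chr10:59323046-59323345, plus strand): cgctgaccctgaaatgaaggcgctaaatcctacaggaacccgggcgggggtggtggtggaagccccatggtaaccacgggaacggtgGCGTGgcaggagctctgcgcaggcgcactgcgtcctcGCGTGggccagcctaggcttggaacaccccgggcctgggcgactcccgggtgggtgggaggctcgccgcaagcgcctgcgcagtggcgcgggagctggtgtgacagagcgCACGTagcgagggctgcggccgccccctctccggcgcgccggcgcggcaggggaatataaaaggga
Ankrd37 (chr8:45999801-46000100, minus strand): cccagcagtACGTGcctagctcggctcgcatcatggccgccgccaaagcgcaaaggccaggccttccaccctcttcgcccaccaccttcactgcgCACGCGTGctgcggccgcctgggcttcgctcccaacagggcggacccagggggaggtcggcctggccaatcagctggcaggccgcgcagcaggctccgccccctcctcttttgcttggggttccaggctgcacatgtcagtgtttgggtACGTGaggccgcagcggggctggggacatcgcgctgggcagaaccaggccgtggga
Selenbp1 (chr3:94932833-94933132, plus strand): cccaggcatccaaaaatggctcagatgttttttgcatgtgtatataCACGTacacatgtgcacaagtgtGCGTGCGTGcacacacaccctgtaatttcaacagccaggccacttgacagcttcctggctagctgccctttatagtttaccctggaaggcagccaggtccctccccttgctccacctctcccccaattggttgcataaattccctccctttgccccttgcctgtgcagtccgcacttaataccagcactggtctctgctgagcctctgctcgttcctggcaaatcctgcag
The Egln3 window held 1 core, that of P4ha1 3, that of Ankrd37 4 and that of Selenbp1 3.

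In overexpressing cells most of the 35 genes rose. The collagen hydroxylases P4ha1 and P4ha2, the mitochondrial proteins Ak4, Higd1a and Fam162a, and the oxygen sensor Egln3 had between 1.90 and 3.00 times the mean RPKM of empty vector cells. In all, 21 of 35 passed the test as higher and 7 as lower (limma on log2(RPKM + 1), adjusted p under 0.05 over all genes), where 31.0% of all tested genes were called higher and 20.3% lower. Knockdown went mostly the other way: with the Foxp1 hairpin 25 of 35 genes fell and 1 rose, where 31.0% of all tested genes were called lower and 18.7% higher. The median log2 fold change of the 35 genes was 0.30 in overexpression and -0.30 in knockdown, beside 0.044 and -0.042 over all tested genes. Without overexpression replicate 3 the counts of the 35 genes in overexpression were 22 up and 5 down. Over all genes 3490 rose and 2285 fell in overexpression, and 2100 rose and 3487 fell in knockdown, a balance that depends on the scaling. With TPM (library sums made equal after dividing by length) 2731 genes rose and 2872 fell in overexpression, where the 35 genes had 20 up and 7 down. With median-ratio scaling 2783 genes rose and 2791 fell in knockdown, where the 35 genes had 2 up and 22 down.

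Both the oxygen-sensing genes and the targets had more rises than falls in overexpression and more falls than rises in knockdown. With this scaling the same held over all tested genes. Their shares were 31.0% up and 20.3% down in overexpression and 18.7% up and 31.0% down in knockdown. Of the 9 HIF subunits, hydroxylases and Vhl, 5 rose and 2 fell in overexpression, with a median log2 fold change of 0.19, and 6 fell and 0 rose in knockdown (median -0.32). Of the 26 targets, 16 rose and 5 fell in overexpression (median 0.51), and 19 fell and 1 rose in knockdown (median -0.30). These counts are a description, and no test of targets against regulators was made. Egln1 and Egln3 are counted with the regulators although they are also HIF targets in other cells.

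**Figure D1:**
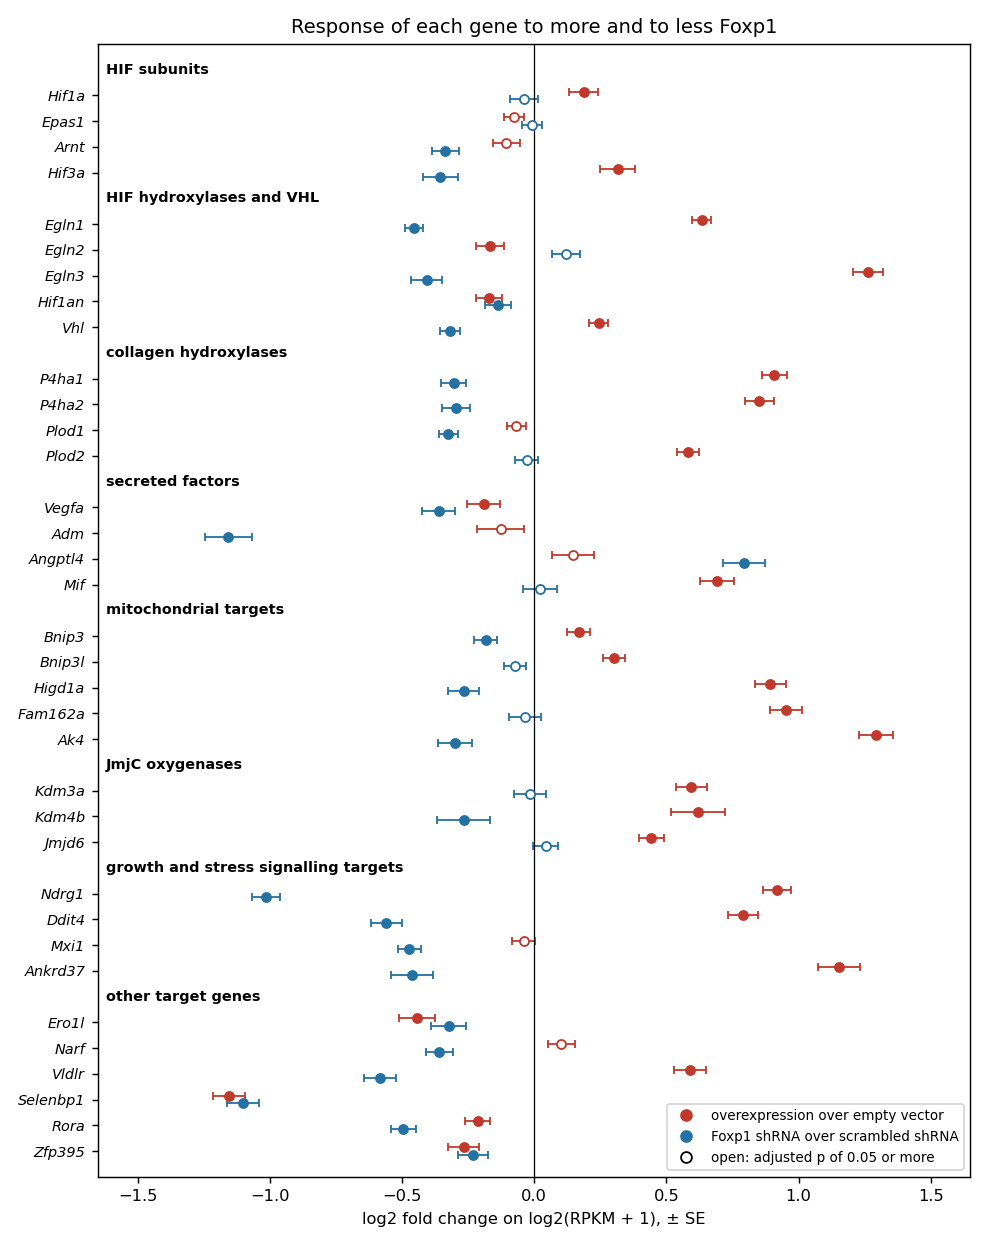
Log2 fold change on log2(RPKM + 1) for each of the 35 genes, grouped by role: red is overexpression over empty vector and blue is Foxp1 shRNA over scrambled shRNA, bars are ± SE and open circles did not pass the test. Most red points lie right of 0 and most blue points left of it, while Hif1an, Vegfa, Ero1l, Selenbp1, Rora and Zfp395 have both points on the left and filled.

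Of the 4 HIF subunits, Hif1a and Hif3a rose in overexpression and Arnt and Hif3a fell in knockdown. Hif1a, the best known alpha subunit, had 15.4, 16.7 and 14.5 RPKM in the overexpressing cells, against 14.1, 13.4 and 13.1 RPKM with the empty vector, and the groups did not overlap (log2 fold change 0.19, SE 0.053, adjusted p = 0.0112). This call ended without overexpression replicate 2 (adjusted p = 0.0511) and with TPM (0.111). In knockdown Hif1a had 16.7, 17.3 and 15.5 RPKM with the Foxp1 hairpin, against 17.4, 16.5 and 17.0 RPKM with the scrambled hairpin, which overlap (log2 fold change -0.040, 95% interval -0.16 to 0.076, adjusted p = 0.556). Its responses differed by 0.23 (adjusted p = 0.0225), a call that was lost with 3 other scalings (adjusted p 0.0793 to 0.11) and when any of 4 single libraries was left out (0.0523 to 0.058): overexpression replicate 2, empty vector replicate 3, Foxp1 shRNA replicate 3 and scrambled replicate 1.

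Epas1, which encodes HIF2-alpha, had 14.4, 14.5 and 14.2 RPKM in the overexpressing cells, against 15.7, 15 and 15 RPKM with the empty vector (log2 fold change -0.077, 95% interval -0.16 to 0.0041, adjusted p = 0.103). That difference was past the threshold with quantile normalization (adjusted p = 0.0143) and with median-ratio scaling (0.0189). It had 9.13, 9.18 and 9.48 RPKM with the Foxp1 hairpin, against 9.36, 9.74 and 8.87 RPKM with the scrambled hairpin, with an interval of -0.089 to 0.074 around a log2 fold change of -0.0078 (adjusted p = 0.876). Epas1 differed more between the experiments than within them: the 6 hairpin libraries lay between 8.87 and 9.74 RPKM and the 6 vector libraries between 14.2 and 15.7 RPKM.

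Arnt, the partner of the alpha subunits, had 8.0, 8.48 and 7.88 RPKM in the overexpressing cells, against 8.91, 8.76 and 8.76 RPKM with the empty vector, a difference that did not pass (log2 fold change -0.11, 95% interval -0.22 to 0.0065, adjusted p = 0.106; 0.0237 with quantile normalization and 0.0252 with median-ratio scaling). In knockdown it fell, with 8.47, 9.63 and 8.92 RPKM with the Foxp1 hairpin, against 11.7, 12.3 and 10.9 RPKM with the scrambled hairpin (log2 fold change -0.34, SE 0.051, adjusted p = 0.000201). Every Foxp1 hairpin library was below every scrambled library.

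Hif3a, whose short splice forms can restrain the other HIFs, was the least abundant subunit and responded in both directions. It had 2.13, 2.53 and 2.84 RPKM in the overexpressing cells, against 1.81, 1.73 and 1.87 RPKM with the empty vector (log2 fold change 0.32, SE 0.066, adjusted p = 0.00162). In knockdown Hif3a had 1.46, 1.67 and 1.66 RPKM with the Foxp1 hairpin, against 2.34, 2.25 and 2.36 RPKM with the scrambled hairpin (log2 fold change -0.36, SE 0.066, adjusted p = 0.000814). The groups did not overlap in either comparison. The signed response of Hif3a to overexpression was above that to knockdown by 0.67 on the log2 scale (adjusted p = 6.75e-05).

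Among the oxygen sensors, Egln3 had the largest change in overexpression and Egln1 in knockdown. Egln3 (chromosome 12, 54178981 to 54203860, minus strand) had 47.6, 52.2 and 55.2 RPKM in the overexpressing cells, against 20.7, 22.5 and 19.7 RPKM with the empty vector (ratio of means 2.47; log2 fold change 1.26, SE 0.057, adjusted p = 2.78e-09). With less Foxp1 it had 107, 108 and 101 RPKM with the Foxp1 hairpin, against 139.5, 141 and 139.6 RPKM with the scrambled hairpin (ratio 0.753; log2 fold change -0.41, SE 0.057, adjusted p = 0.000108). Neither pair of groups overlapped. The main oxygen sensor of most cells, Egln1, had 39.7, 40.5 and 38.7 RPKM in the overexpressing cells, against 25.4, 26.2 and 24.1 RPKM with the empty vector (ratio 1.57, adjusted p = 1.69e-08) and 82.8, 83.1 and 81.6 RPKM with the Foxp1 hairpin, against 113, 114 and 113 RPKM with the scrambled hairpin (ratio 0.727, adjusted p = 1.28e-06). The replicates of Egln1 lay within a few RPKM of each other in all 4 groups, so its differences were far larger than the spread.

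Egln2, a prolyl hydroxylase that hypoxia is not known to induce, fell in overexpression. It had 26.5, 25.4 and 23.3 RPKM in the overexpressing cells, against 26.5, 28.7 and 29.5 RPKM with the empty vector (log2 fold change -0.17, SE 0.052, adjusted p = 0.0178), and the call was lost when overexpression replicate 3 (adjusted p = 0.0552), empty vector replicate 2 (0.0586) or empty vector replicate 3 (0.0781) was left out. In knockdown it had 25.1, 26.0 and 27.2 RPKM with the Foxp1 hairpin, against 23.9, 24.5 and 23.3 RPKM with the scrambled hairpin (log2 fold change 0.12, 95% interval 0.0077 to 0.23, adjusted p = 0.0717), which passed with median-ratio scaling (0.00699) and without overexpression replicate 3 (0.0322). The overexpression response of Egln2 minus its knockdown response was -0.29 on the log2 scale (adjusted p = 0.00549), beside 1.67 for Egln3 (adjusted p = 7.29e-09) and 1.09 for Egln1 (adjusted p = 4.21e-09).

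Vhl averaged 19.7 ± 0.765 RPKM in overexpressing cells and 16.5 ± 0.0996 RPKM in empty vector cells (log2 fold change 0.24, adjusted p = 0.000163). In knockdown Vhl averaged 27.4 ± 1.04 RPKM with the Foxp1 hairpin and 34.5 ± 0.557 RPKM with the scrambled hairpin (log2 fold change -0.32, adjusted p = 2.8e-05; SD, n = 3 each). So it rose with more Foxp1 and fell with less. Hif1an, the asparagine hydroxylase, was called lower in both, in knockdown only under some settings. It averaged 8.67 ± 0.247 RPKM in overexpressing cells and 9.89 ± 0.0878 RPKM in empty vector cells (log2 fold change -0.17, adjusted p = 0.0123). In knockdown Hif1an averaged 11.5 ± 0.541 RPKM with the Foxp1 hairpin and 12.8 ± 0.944 RPKM with the scrambled hairpin (log2 fold change -0.14, adjusted p = 0.0368), where the groups overlap. The call of Hif1an in knockdown was lost when Foxp1 shRNA replicate 1 (adjusted p = 0.14) or 3 (0.0729) or scrambled replicate 1 (0.101) or 2 (0.16) was left out. It was also lost when empty vector replicate 1 was left out (0.0501), which enters only the shared spread. Quantile normalization (0.137), median-ratio scaling (0.132), TPM (0.0505), no filter (0.0792) and a fit of only the libraries compared (0.0731) ended it too.

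**Figure D2:**
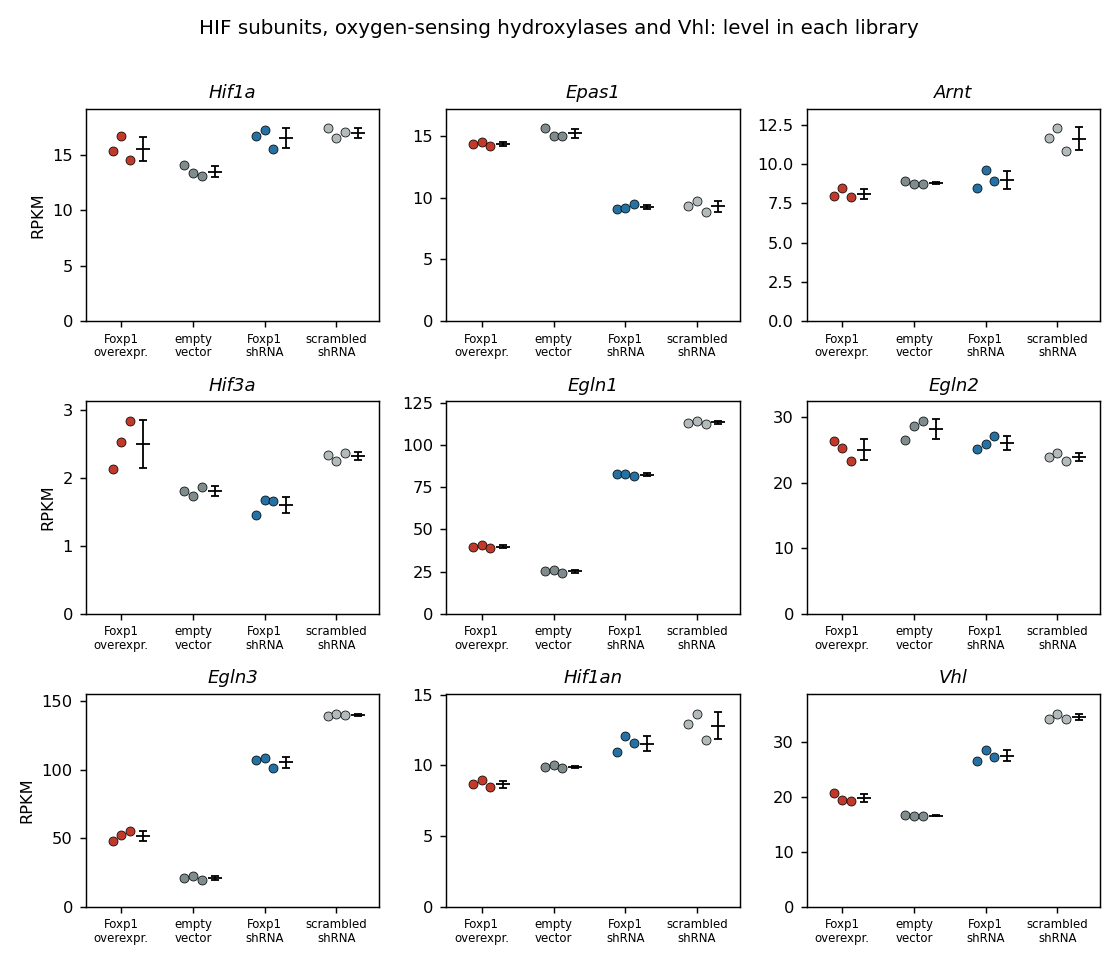
RPKM of the 4 HIF subunits, the 3 Egln genes, Hif1an and Vhl in each library (points), with the mean and SD of each group beside them (n = 3). Egln1, Egln3 and Vhl step through the groups with no overlap, while Hif1a and Egln2 stay within a narrow range. Epas1 splits by experiment, and Arnt is highest with the scrambled hairpin.

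Collagen-modifying hydroxylases rose with overexpression in 3 of 4 cases and fell with knockdown in 3 of 4. The share over all tested genes was 31.0% for each, and the counts of a class this small are only a description. P4ha1 and P4ha2 are the catalytic subunits of collagen prolyl hydroxylase, and Plod1 and Plod2 hydroxylate collagen lysines. P4ha1 had 27.2, 30.0 and 26.6 RPKM in the overexpressing cells, against 13.9, 15.2 and 14.2 RPKM with the empty vector (ratio 1.94; log2 fold change 0.91, SE 0.048, adjusted p = 1.15e-08). In knockdown P4ha1 had 51.5, 54.7 and 51.9 RPKM with the Foxp1 hairpin, against 65.6, 66.3 and 64.0 RPKM with the scrambled hairpin (ratio 0.807; log2 fold change -0.30, SE 0.048, adjusted p = 0.000266). P4ha2 had 11.6, 12.6 and 10.7 RPKM in the overexpressing cells, against 5.91, 6.04 and 6.04 RPKM with the empty vector (log2 fold change 0.85, adjusted p = 5.47e-08). In knockdown P4ha2 had 20.4, 20.5 and 21.7 RPKM with the Foxp1 hairpin, against 25.1, 27.3 and 25.1 RPKM with the scrambled hairpin (log2 fold change -0.30, adjusted p = 0.000727). Both genes had groups that did not overlap in either experiment.

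Plod2 responded to overexpression and not detectably to knockdown. It had 2.62, 2.74 and 2.70 RPKM in the overexpressing cells, against 1.58, 1.47 and 1.35 RPKM with the empty vector (ratio 1.84, adjusted p = 1.79e-07). In knockdown Plod2 had 8.20, 8.54 and 7.98 RPKM with the Foxp1 hairpin, against 8.31, 8.36 and 8.61 RPKM with the scrambled hairpin (log2 fold change -0.029, 95% interval -0.12 to 0.062, adjusted p = 0.589). Plod1 showed the reverse: it averaged 44.6 ± 0.912 RPKM in overexpressing and 46.8 ± 0.911 RPKM in empty vector cells (adjusted p = 0.136, or 0.0321 with median-ratio scaling), and fell to 88.4 ± 2.93 RPKM with the Foxp1 hairpin, against 111 ± 2.53 RPKM with the scrambled one (adjusted p = 1.71e-05). The difference between the responses passed for both, at 0.61 for Plod2 (adjusted p = 3.01e-06) and 0.26 for Plod1 (adjusted p = 0.000971).

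The secreted factors did not move together. In overexpression 1 of 4 rose (Mif) and 1 fell (Vegfa), and in knockdown 2 fell (Vegfa and Adm) and 1 rose (Angptl4). Such counts lie near the shares over all tested genes. Those were 31.0% up and 20.3% down in overexpression, and 18.7% up and 31.0% down in knockdown. Adrenomedullin (Adm), a vessel-dilating peptide, had 8.86, 7.04 and 7.74 RPKM in the overexpressing cells, against 9.64, 7.6 and 8.85 RPKM with the empty vector, which overlap (log2 fold change -0.13, 95% interval -0.32 to 0.066, adjusted p = 0.253). In knockdown it fell, with 2.24, 2.40 and 2.43 RPKM with the Foxp1 hairpin, against 5.86, 7.11 and 6.54 RPKM with the scrambled hairpin (ratio 0.363; log2 fold change -1.16, SE 0.088, adjusted p = 1.18e-06). This was the lowest ratio of means in knockdown among the 35 genes, next to 0.410 for Ndrg1.

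Angptl4, a secreted inhibitor of lipoprotein lipase that PPAR-gamma also induces, was the single gene of the 35 that rose in knockdown. It had 93.6, 90.6 and 99.8 RPKM with the Foxp1 hairpin, against 51.0, 55.4 and 56.1 RPKM with the scrambled hairpin (ratio 1.75; log2 fold change 0.79, SE 0.080, adjusted p = 9.06e-06), and the groups did not overlap. In overexpression it had 77.1, 76.4 and 60.8 RPKM in the overexpressing cells, against 60.9, 65.5 and 65.9 RPKM with the empty vector, where overexpression replicates 1 and 2 were above the control libraries and replicate 3 was not (log2 fold change 0.15, 95% interval -0.028 to 0.32, adjusted p = 0.146, or 0.0015 upward without that library). Mif, a cytokine, had 478, 506 and 576 RPKM in the overexpressing cells, against 315, 333 and 315 RPKM with the empty vector (ratio 1.62, adjusted p = 1.79e-06). In knockdown Mif had 962, 921 and 1005 RPKM with the Foxp1 hairpin, against 921, 943 and 979 RPKM with the scrambled hairpin, which overlap (log2 fold change 0.021, 95% interval -0.12 to 0.16, adjusted p = 0.797). Processed copies of Mif exist in the mouse genome, and how reads matching several places were counted is not given in the sources used here, so its absolute level is uncertain.

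Vegfa, the main growth factor for blood vessels, averaged 50.6 ± 3.05 RPKM in overexpressing cells and 57.8 ± 1.05 RPKM in empty vector cells (log2 fold change -0.19, adjusted p = 0.0218). That fall did not pass when overexpression replicate 3 (adjusted p = 0.0675) or either of empty vector replicates 1 (0.0521) and 2 (0.0671) was left out, nor without a filter (0.0568). With the Foxp1 hairpin it fell to 65.2 ± 5.87 RPKM, against 83.9 ± 3.59 RPKM with the scrambled hairpin (log2 fold change -0.36, adjusted p = 0.000483). The responses of Vegfa did not differ past the threshold (difference 0.17, 95% interval -0.022 to 0.36, adjusted p = 0.122), although they did without overexpression replicate 3 (0.0401) or Foxp1 shRNA replicate 2 (0.027).

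All 5 mitochondrial targets rose in overexpression (31.0% of all tested genes did), and 3 of 5 fell in knockdown (31.0%). Adenylate kinase 4 (Ak4), an enzyme of the mitochondrial matrix, had 7.31, 8.73 and 7.70 RPKM in the overexpressing cells, against 2.64, 2.89 and 2.38 RPKM with the empty vector (ratio 3.00; log2 fold change 1.29, SE 0.064, adjusted p = 6.17e-09). In knockdown Ak4 had 16.2, 17.0 and 15.7 RPKM with the Foxp1 hairpin, against 20.6, 20.9 and 19.4 RPKM with the scrambled hairpin (ratio 0.803; log2 fold change -0.30, SE 0.064, adjusted p = 0.00213). Higd1a, a small inner membrane protein that binds respiratory complexes, had 40.3, 36.7 and 37.6 RPKM in the overexpressing cells, against 21.0, 19.9 and 19.4 RPKM with the empty vector (ratio 1.90, adjusted p = 8.7e-08). In knockdown Higd1a had 59.4, 52.7 and 56.2 RPKM with the Foxp1 hairpin, against 62.3, 69.7 and 71.3 RPKM with the scrambled hairpin (ratio 0.828, adjusted p = 0.00271). In both genes the groups were apart in each experiment.

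Fam162a, a mitochondrial protein linked to cell death under hypoxia, had 193, 186 and 165 RPKM in the overexpressing cells, against 91.1, 97.5 and 90.3 RPKM with the empty vector (ratio 1.95, adjusted p = 4.95e-08). Wdr5b, whose exons overlap it on the other strand, averaged 1.63 RPKM over the 12 libraries beside 294 RPKM for Fam162a. In knockdown Fam162a had 454, 424 and 457 RPKM with the Foxp1 hairpin, against 446, 445 and 477 RPKM with the scrambled hairpin, with no difference past the threshold (log2 fold change -0.035, 95% interval -0.16 to 0.095, adjusted p = 0.647; 0.0304 with quantile normalization). The mitophagy receptors Bnip3 and Bnip3l had the smallest changes of these 5 genes in overexpression. Bnip3 averaged 192 ± 7.63 RPKM in overexpressing and 170.3 ± 7.01 RPKM in empty vector cells (log2 fold change 0.17, adjusted p = 0.00619). In knockdown Bnip3 averaged 454 ± 11.1 RPKM with the Foxp1 hairpin and 516 ± 12.2 RPKM with the scrambled hairpin (log2 fold change -0.18, adjusted p = 0.00389). Its calls ended with median-ratio scaling (adjusted p = 0.0574 in overexpression and 0.0541 in knockdown), and in overexpression also with quantile normalization (0.0506). Bnip3l averaged 51.3 ± 2.03 RPKM in overexpressing and 41.4 ± 1.05 RPKM in empty vector cells (log2 fold change 0.30, adjusted p = 4.73e-05), and did not pass in knockdown (log2 fold change -0.073, adjusted p = 0.152; 0.0316 with TPM). The mitochondrial share of reads was also higher in overexpressing cells (10.9% ± 1.91, and 9.04% ± 0.387 with the empty vector, SD, n = 3 each). The calls of these 5 genes were the same when scaled to reads outside the mitochondrial genome. Beyond this scaling, the part of the mitochondrial share in these values was not tested.

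Oxygen-dependent JmjC enzymes rose with overexpression in 3 of 3 cases, where 31.0% of all tested genes rose. Kdm3a, which removes methyl groups from lysine 9 of histone H3, had 11.8, 13.8 and 13.4 RPKM in the overexpressing cells, against 8.29, 8.35 and 8.13 RPKM with the empty vector (ratio 1.58; log2 fold change 0.59, SE 0.060, adjusted p = 3.99e-06). Its knockdown values overlapped, with 12.5, 14.5 and 13.2 RPKM with the Foxp1 hairpin, against 13.2, 14 and 13.5 RPKM with the scrambled hairpin (log2 fold change -0.017, 95% interval -0.15 to 0.11, adjusted p = 0.83). Jmjd6, a hydroxylase of lysines in splicing factors, had 9.2, 9.96 and 8.71 RPKM in the overexpressing cells, against 6.5, 6.71 and 6.48 RPKM with the empty vector (adjusted p = 6.72e-06). In knockdown Jmjd6 had 15.7, 16.4 and 16.7 RPKM with the Foxp1 hairpin, against 15.1, 16.1 and 16.1 RPKM with the scrambled hairpin (log2 fold change 0.043, 95% interval -0.059 to 0.15, adjusted p = 0.476). Both genes were thus apart in overexpression and overlapped in knockdown. Mettl23 overlaps Jmjd6 on the other strand and averaged 3.48 RPKM over the 12 libraries, beside 12 RPKM for Jmjd6.

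Kdm4b, another histone demethylase, had 22.5, 25.0 and 17.8 RPKM in the overexpressing cells, against 13.2, 14.5 and 13.4 RPKM with the empty vector (log2 fold change 0.62, SE 0.10, adjusted p = 0.000259), where overexpression replicate 3 was the lowest of its group but above every control. It had 15.9, 19.1 and 18.2 RPKM with the Foxp1 hairpin, against 21.2, 23.0 and 20.2 RPKM with the scrambled hairpin (log2 fold change -0.27, SE 0.10, adjusted p = 0.0444). The knockdown call of Kdm4b had the largest adjusted p among the 26 calls: it was lost when Foxp1 shRNA replicate 1 (adjusted p = 0.167) or 3 (0.072) or scrambled replicate 1 (0.0848) or 2 (0.146) was left out. The same held for any 1 of the empty vector libraries (0.0517 to 0.0572), for TPM (0.063), for median-ratio scaling (0.0602) and for quantile normalization (0.062).

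Of the 4 growth and stress signalling genes 3 rose in overexpression (31.0% of all tested genes did) and all 4 fell in knockdown (31.0%). Ndrg1, a stress-responsive cytoplasmic protein used as a hypoxia marker, had 2.24, 2.31 and 2.38 RPKM in the overexpressing cells, against 0.743, 0.781 and 0.723 RPKM with the empty vector (ratio 3.08; log2 fold change 0.92, SE 0.052, adjusted p = 2.18e-08), with the limit from the filter given above. With less Foxp1 it had 2.36, 2.55 and 2.49 RPKM with the Foxp1 hairpin, against 5.99, 6.57 and 5.5 RPKM with the scrambled hairpin (ratio 0.410; log2 fold change -1.02, SE 0.052, adjusted p = 6.89e-08). The difference between its responses, 1.93 on the log2 scale (adjusted p = 1.03e-09), was the largest of the 35 genes. That value includes the difference from the empty vector, so the limit from the filter applies to it and to its rank. Ddit4 (REDD1), an inhibitor of mTORC1 that glucocorticoids and ATF4 also induce, had 76.6, 74.6 and 69.0 RPKM in the overexpressing cells, against 39.9, 43.0 and 43.1 RPKM with the empty vector (ratio 1.75, adjusted p = 1.98e-07). In knockdown Ddit4 had 119, 135 and 128 RPKM with the Foxp1 hairpin, against 186, 199 and 180.4 RPKM with the scrambled hairpin (ratio 0.677, adjusted p = 1.05e-05).

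Ankrd37, a small ankyrin repeat protein and a direct HIF target in human cells, had 4.47, 4.26 and 4.25 RPKM in the overexpressing cells, against 1.23, 1.32 and 1.66 RPKM with the empty vector (ratio 3.09; log2 fold change 1.15, SE 0.079, adjusted p = 1.15e-07). In knockdown it had 5.79, 7.31 and 5.94 RPKM with the Foxp1 hairpin, against 8.74, 8.96 and 9.57 RPKM with the scrambled hairpin (ratio 0.698; log2 fold change -0.46, SE 0.079, adjusted p = 0.000456), so the groups were apart in both experiments. Its exons overlap those of Ufsp2 on the other strand, which averaged 21.5 RPKM over the 12 libraries beside 5.29 RPKM for Ankrd37, and the strand setting is not given in the sources used here, so reads from the shared stretch cannot be told apart. Mxi1, an antagonist of Myc, averaged 11.4 ± 0.247 RPKM in overexpressing and 11.8 ± 0.103 RPKM in empty vector cells (log2 fold change -0.040, adjusted p = 0.467, 95% interval -0.14 to 0.055). It fell to 14.7 ± 1.03 RPKM with the Foxp1 hairpin, against 20.8 ± 0.362 RPKM with the scrambled one (log2 fold change -0.47, adjusted p = 5.24e-06).

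The remaining 6 targets all fell in knockdown (31.0% of all tested genes did), while in overexpression 4 fell (20.3%) and 1 rose (31.0%). The very-low-density lipoprotein receptor Vldlr, which PPAR-gamma also induces in fat cells, was the riser. It had 28.4, 30.6 and 25.8 RPKM in the overexpressing cells, against 18.4, 19.1 and 17.7 RPKM with the empty vector (ratio 1.54; log2 fold change 0.59, SE 0.060, adjusted p = 4.72e-06). In knockdown Vldlr had 15.5, 17.6 and 15.8 RPKM with the Foxp1 hairpin, against 25.3, 24.9 and 24.2 RPKM with the scrambled hairpin (ratio 0.655; log2 fold change -0.58, SE 0.060, adjusted p = 1.12e-05). Its groups were apart in both experiments. Narf, a nuclear protein that binds prelamin A, had 14.9, 15.7 and 15.1 RPKM in the overexpressing cells, against 13.1, 14.7 and 14.6 RPKM with the empty vector (log2 fold change 0.10, adjusted p = 0.114, 95% interval -0.0089 to 0.21; adjusted p = 0.0379 when scaled to reads outside the mitochondrial genome). In knockdown Narf had 13.4, 14.5 and 13.8 RPKM with the Foxp1 hairpin, against 18.4, 18.9 and 17.1 RPKM with the scrambled hairpin (log2 fold change -0.36, adjusted p = 0.00012).

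Selenbp1, a selenium-binding methanethiol oxidase, fell in each experiment. It averaged 5.60 ± 0.232 RPKM in overexpressing cells and 13.7 ± 1.22 RPKM in empty vector cells (ratio 0.408; log2 fold change -1.15, SE 0.061, adjusted p = 1.15e-08). In knockdown Selenbp1 averaged 7.41 ± 0.473 RPKM with the Foxp1 hairpin and 17.0 ± 0.749 RPKM with the scrambled hairpin (ratio 0.435; log2 fold change -1.10, SE 0.061, adjusted p = 1.04e-07). Its falls differed by -0.053 on the log2 scale (95% interval -0.24 to 0.14, adjusted p = 0.624). The near-identical gene Selenbp2 could share reads with it, and pseudogene copies could with Bnip3l.

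Ero1l, the oxidase that makes disulfide bonds in the endoplasmic reticulum, also fell in both, with 135 ± 8.68 RPKM in overexpressing and 184 ± 14.5 RPKM in empty vector cells (log2 fold change -0.44, adjusted p = 0.000136). In knockdown Ero1l averaged 760.5 ± 52.5 RPKM with the Foxp1 hairpin and 950.1 ± 18.5 RPKM with the scrambled hairpin (log2 fold change -0.32, adjusted p = 0.00168). The nuclear receptor Rora had 4.40, 4.71 and 4.81 RPKM in the overexpressing cells, against 5.54, 5.56 and 5.52 RPKM with the empty vector (log2 fold change -0.21, adjusted p = 0.00199). In knockdown Rora had 4.76, 5.17 and 4.47 RPKM with the Foxp1 hairpin, against 7.26, 7.24 and 6.99 RPKM with the scrambled hairpin (log2 fold change -0.49, adjusted p = 5.24e-06), and fell more in knockdown (difference 0.28, adjusted p = 0.00297, or 0.0714 with quantile normalization). Zfp395, a zinc finger protein, averaged 10.8 ± 0.703 RPKM in overexpressing and 13.2 ± 0.501 RPKM in empty vector cells (log2 fold change -0.27, adjusted p = 0.00205). In knockdown Zfp395 averaged 14.6 ± 0.794 RPKM with the Foxp1 hairpin and 17.3 ± 1.12 RPKM with the scrambled hairpin (log2 fold change -0.23, adjusted p = 0.00544), so that it fell in both experiments.

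**Figure D3:**
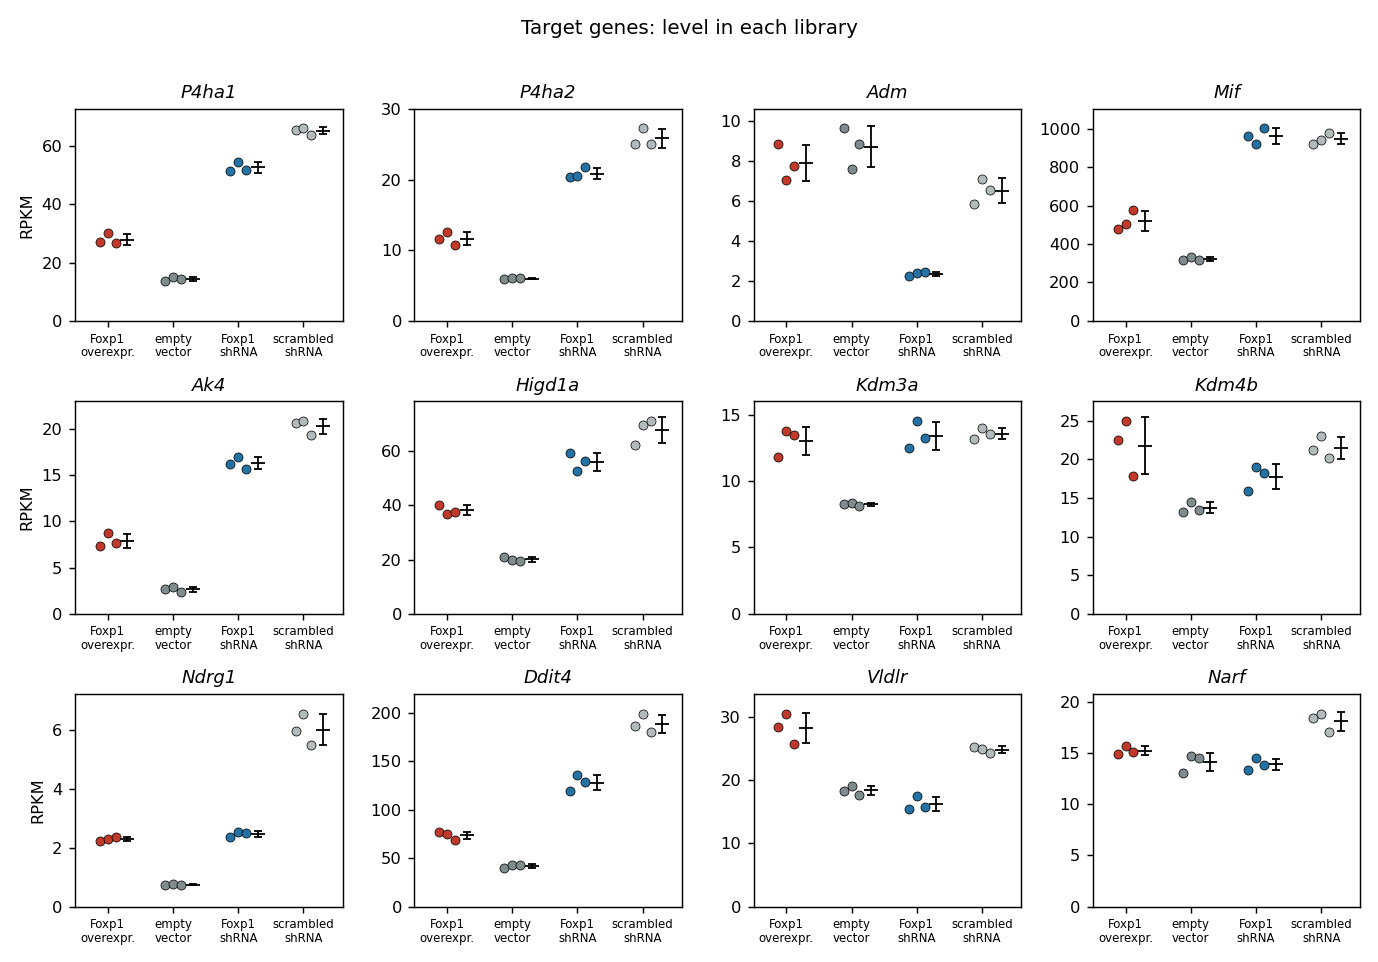
RPKM in each library (points) and the mean and SD of each group (n = 3) for the 2 genes of each target class with the smallest adjusted p for the difference of responses. P4ha1, P4ha2, Ak4, Higd1a and Ddit4 step up over empty vector, overexpression, Foxp1 shRNA and scrambled shRNA, whereas Adm is lowest with the Foxp1 hairpin and Vldlr is highest with overexpression.

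Set side by side, 14 of the 35 genes rose in overexpression and fell in knockdown, a pattern of 12.1% of all tested genes. They were Hif3a, Egln1, Egln3, Vhl, P4ha1, P4ha2, Bnip3, Higd1a, Ak4, Kdm4b, Ndrg1, Ddit4, Ankrd37 and Vldlr. None of the 35 fell in overexpression and rose in knockdown (6.00% of tested genes), and none rose in both (4.72%). The 6 that fell in both, where 5.79% of tested genes did, were Hif1an, Vegfa, Ero1l, Selenbp1, Rora and Zfp395. Tested directly, the signed response to overexpression was above that to knockdown in 27 of 35 genes and below it in 2, Egln2 and Angptl4. Over all tested genes 34.6% were called above and 20.3% below. A gene can be above by falling more in knockdown, as Adm did (log2 fold change -0.13 in overexpression and -1.16 in knockdown). With median-ratio scaling 3009 of all genes were above and 3053 below, beside 3888 and 2285 as given first, and the 35 genes had 25 above and 3 below.

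The controls themselves differed, and for 27 of the 35 genes by more than in either manipulation on the log2 scale. How many of all tested genes did the same was not counted, so this number is only a description. With the scrambled hairpin 31 of the 35 genes were higher than with the empty vector and 4 were lower, where 44.8% of all tested genes were called higher and 27.0% lower. The median log2 fold change was 0.87 for the 35 genes, 1.19 for the 26 targets and 0.34 for the 9 HIF and oxygen-sensing genes, beside 0.089 over all tested genes. With median-ratio scaling 3938 of all genes were higher and 3990 lower, beside 5037 and 3033 as given first, and the 35 genes had 30 higher and 4 lower. Each control group is also part of its own experiment, so these differences and the responses above are not independent. Egln3 averaged 140.0 ± 0.796 RPKM with the scrambled hairpin and 20.9 ± 1.44 RPKM with the empty vector (ratio 6.68, adjusted p = 5.19e-12; SD, n = 3 each). Ero1l averaged 950.1 ± 18.5 RPKM with the scrambled hairpin and 184 ± 14.5 RPKM with the empty vector (ratio 5.15, adjusted p = 3.28e-11), although it fell in both manipulations.

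The 4 genes that were lower with the scrambled hairpin were Epas1, at a ratio of means of 0.612 (adjusted p = 1.18e-08), Adm at 0.748 (adjusted p = 0.00244), Angptl4 at 0.845 (adjusted p = 0.0172) and Egln2 at 0.847 (adjusted p = 0.00166). The call of Angptl4 was lost with TPM (adjusted p = 0.143) and when scrambled replicate 1 (0.0699) or empty vector replicates 2 (0.0517) or 3 (0.056) were left out in turn, that of Egln2 ended with TPM (0.0544), and that of Hif3a, which was higher, with median-ratio scaling (0.054). The controls differ in construct, and the labels used here do not say whether the experiments were run side by side, so construct, culture and date cannot be told apart. The mitochondrial share of reads was 5.37% ± 0.497 with the scrambled hairpin and 9.04% ± 0.387 with the empty vector (SD, n = 3 each). Scaling to reads outside the mitochondrial genome changed no call between the controls among the genes described here. Beyond this scaling, the part of the mitochondrial share was not tested. Foxp1 itself differed by a ratio of 1.21 (adjusted p = 0.0133).

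Across the 4 groups the commonest order, from low to high, was empty vector, overexpression, Foxp1 shRNA and scrambled shRNA, which 16 of the 35 genes followed by their means. In 10 of them no neighbouring groups overlapped: Egln1, Egln3, Vhl, P4ha1, P4ha2, Bnip3, Higd1a, Ak4, Ddit4 and Ankrd37. This order was noticed in the values first and is given without a test. With no overlap of neighbours it was met by 3.14% of all tested genes, a share that belongs beside the 10 genes only. The share of all tested genes with this order by their means was not counted. In Plod2, Bnip3l and Fam162a the 2 hairpin groups overlapped, in Ndrg1 overexpression and Foxp1 shRNA overlapped, and in Hif1a and Kdm3a overexpression, Foxp1 shRNA and scrambled shRNA ran into each other. Foxp1 followed another order by its means, with Foxp1 shRNA lowest, then empty vector, scrambled shRNA and overexpression. Of the 35 genes 2, Hif3a and Vldlr, had the order of Foxp1 by their means, in Vldlr with no overlap of neighbours. The share of all tested genes with the order of Foxp1 was not counted. The 16 genes above were ordered differently from Foxp1 RNA: Egln1, for one, averaged 82.5 ± 0.790 RPKM with the Foxp1 hairpin and 39.7 ± 0.923 RPKM in overexpressing cells. A link of any of these orders to the level of Foxp1 was not tested. A further 7 genes (Arnt, Hif1an, Plod1, Vegfa, Mxi1, Ero1l and Zfp395) had overexpression lowest, then empty vector, Foxp1 shRNA and scrambled shRNA. The share of all tested genes in that order was not counted either.

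**Figure D4:**
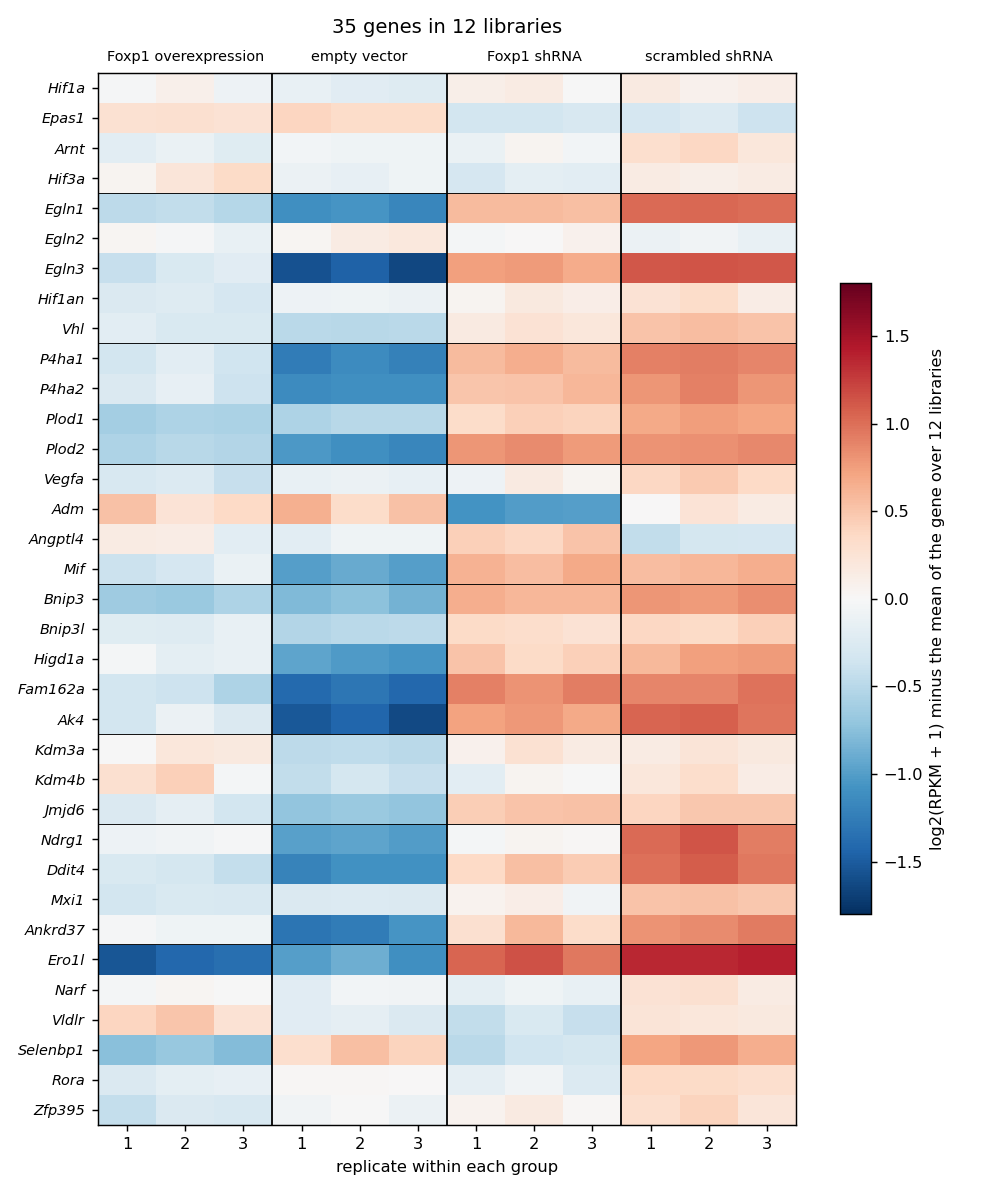
Level of each of the 35 genes in each of the 12 libraries as log2(RPKM + 1) minus the mean of that gene over all libraries, with groups side by side and roles separated by lines. For most genes the hairpin libraries (right 6 columns) lie above the vector libraries (left 6 columns), and all 6 lie below them for Epas1.

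Other genes of the pathway, listed with earlier results of these data known, are given by their counts. Of 20 further genes, among them HIF cofactors and degradation factors, 18 were tested, with 6 up and 6 down in overexpression and 2 up and 6 down in knockdown, where the shares over all tested genes were 31.0% up and 20.3% down in overexpression and 18.7% up and 31.0% down in knockdown. Cited2, which competes with HIF for its coactivator, fell in both (log2 fold change -0.71, adjusted p = 1.37e-08 in overexpression; log2 fold change -0.21, adjusted p = 0.000668 in knockdown). Creb3l1, a transcription factor of collagen secretion, rose in overexpression (log2 fold change 0.74, adjusted p = 1.93e-06) and fell in knockdown (log2 fold change -0.37, adjusted p = 0.000818). The deubiquitinase Usp20 fell in overexpression (log2 fold change -0.47, adjusted p = 2.99e-05), and the chaperone Hsp90aa1 rose in knockdown (log2 fold change 0.35, adjusted p = 0.000127).

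Of 29 other genes that hypoxia induces outside glycolysis 21 were tested, with 12 up and 4 down in overexpression and 3 up and 13 down in knockdown. Over all tested genes 31.0% were called up and 20.3% down in overexpression, and 18.7% up and 31.0% down in knockdown. Some of the 21 passed the filter only through groups where they were high, so their calls were partly fixed by it. Car12 reached 1 RPKM in 3 libraries and averaged 1.31 RPKM with the scrambled hairpin and 0.322 RPKM with the Foxp1 hairpin. Stc1 reached 1 RPKM in 9 libraries and averaged 0.822 RPKM with the empty vector. Carbonic anhydrase 9 (Car9), a classical marker of hypoxia, averaged 0.912 ± 0.115 RPKM in overexpressing and 0.185 ± 0.0692 RPKM in empty vector cells (adjusted p = 4.41e-07). Both means lie under 1 RPKM, and none of its empty vector libraries reached the filter. Car9 reached 1 RPKM in 7 libraries and passed through the hairpin groups, which averaged 2.31 RPKM (Foxp1) and 4.68 RPKM (scrambled). Against the majority, Rbpms fell in overexpression (log2 fold change -1.33, adjusted p = 8.32e-09), and the transferrin receptor Tfrc rose in knockdown (log2 fold change 0.97, adjusted p = 2.65e-08). Ppp1r3c, a glycogen-targeting subunit, fell in knockdown (log2 fold change -0.86, adjusted p = 2.9e-07).

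Glycolytic HIF targets, the genes left out of the 35, are given for comparison. Of 20 listed 17 were tested, with 15 up and 1 down in overexpression (median 0.74) and 3 up and 6 down in knockdown (median -0.087), beside 19 of 26 down for the targets outside glycolysis (median -0.30). Over all tested genes the shares were 31.0% up and 20.3% down in overexpression and 18.7% up and 31.0% down in knockdown. The knockdown counts of the 17 glycolytic genes lay near these shares. The difference between the lists was not tested. Enolase 1 (Eno1) and Ldha rose in overexpression (log2 fold change 1.26, adjusted p = 4.39e-10 for Eno1; log2 fold change 0.81, adjusted p = 1.16e-08 for Ldha), while Pfkfb3 fell (log2 fold change -1.08, adjusted p = 2.39e-09). In knockdown Gpi1 (log2 fold change -0.49, adjusted p = 1.34e-06), Eno2 (log2 fold change -0.76, adjusted p = 3.16e-06) and Hk2 (log2 fold change -0.45, adjusted p = 0.000162) fell. These were among the 6 that fell, and 3 others rose.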

How the data were processed

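RNA of 3T3-L1 adipocytes was sequenced in 12 libraries, held in 1 matrix. The values are reads per kilobase of exon corrected for library depth (RPKM) as deposited by the authors, stored divided by 1000 and multiplied back here. Per the submitters' processing notes, HISAT2 2.1.0, featureCounts and Subread 1.5.3 were used with build mm10; their settings for strand and for reads matching several places are not given in the sources used here. No column was left unused (0 not mapped to a sample). Of 28948 identifiers 28896 were named from the GENCODE annotation of GRCm38, whose coordinates are given. The deposited RPKM of a library are steps of 1 read: 98.83% to 98.93% of values fell within 0.05 of a whole read, which gave 35252019 to 38450003 reads per library. At this depth the lowest count of any of the 35 genes in a library was 72 reads (Ankrd37).

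The test was limma 3.58.1 (R 4.3.3) on log2(RPKM + 1), with a mean-variance trend, 1 mean per group over all 12 libraries and Benjamini-Hochberg adjustment over the 11245 genes that reached 1 RPKM in 3 or more libraries; calls are at an adjusted p under 0.05, two-sided. On this scale the change of a low gene is understated, and the main genes therefore also have the ratio of their group means. Intervals are 95% and not adjusted. The comparisons were overexpression with empty vector, Foxp1 shRNA with scrambled shRNA, the difference of these responses, and the controls with each other. The fit was tested on simulated data, and tables were made with Python 3.11.15 and pandas 2.3.3. Alternatives were other pseudocounts, filters, scalings, variance models and thresholds, reads recovered from the steps with voom, a replicate block and leaving out each library.

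All 35 genes are named. Values in every library are given for the HIF subunits, the 3 Egln genes and the up to 3 genes of each target class with the smallest adjusted p for the difference of responses; of other lists up to 3 genes per comparison are named, and 1 gene that this rule picks is not reported here. The members, classes and lists were chosen with earlier results of these data known.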

Additional observations from a re-analysis of the deposited data

How the results depend on the processing

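Over 25 alternatives, 81 of 3461 values of the 35 genes in the 4 comparisons had another call: 63 lost it, 18 gained it and 0 changed direction. The genes concerned were 10 in overexpression, 6 in knockdown, 5 in the difference of responses and 3 between the controls, and the report gives values for most of these changes. Other pseudocounts and voom on the recovered reads left the counts of the 35 genes at 21 up and 7 down in overexpression, 1 up and 25 down in knockdown, 27 up and 2 down in the difference, and 31 up and 4 down between the controls.

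Counts that moved by more than 1.5 times were these. In knockdown 2 of the 35 genes rose, and 1 of the 9 HIF and oxygen-sensing genes (Egln2 in each case), with median-ratio scaling, quantile normalization, scaling to reads outside the mitochondrial genome, or only the libraries compared. The 9 genes had 4 falls in overexpression under quantile normalization and under median-ratio scaling, 1 with only the libraries compared and 0 at a threshold of 0.01 (limma; both calls have an unadjusted p under 0.05), where 4 of the 35 genes fell. With TPM 2 of the 35 genes were lower between the controls, 1 glycolytic target rose in knockdown (5 with median-ratio scaling) and 3 other pathway genes rose in overexpression, as 3 did at a threshold of 0.01. With a filter of 5 RPKM fewer genes were tested: 2013 of all genes were lower between the controls, 2582 were above 0 in the difference, 8 other hypoxia-inducible genes fell in knockdown and 7 rose in overexpression. Without a filter 2 glycolytic targets fell in overexpression.

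Leaving out 1 library at a time, 20 to 22 of the 35 genes rose and 5 to 7 fell in overexpression, and 1 to 2 rose and 23 to 25 fell in knockdown. The 9 HIF and oxygen-sensing genes had 4 to 5 rises and 1 to 2 falls in overexpression, and 0 to 1 rises and 5 to 6 falls in knockdown. The difference gave 26 to 28 above and 2 below, and the controls 31 higher and 3 to 4 lower. Where a group had 2 libraries left, the spread was shared with the other groups.

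The labels do not say that replicate numbers pair the samples, and correlations among 3 libraries in each group cannot exclude it. Deviations of libraries with the same number correlated at -0.0132, 0.118 and 0.0806 in overexpression and at -0.0727, 0.0492 and -0.0595 in knockdown. Libraries with different numbers correlated at -0.141 to 0.0717 in overexpression and at -0.189 to 0.237 in knockdown. With a replicate block the counts of the 35 genes were the same, at 21 up and 7 down in overexpression, 1 up and 25 down in knockdown, 27 and 2 in the difference, and 31 and 4 between the controls. Depth limits Ankrd37, Adm and Ndrg1 most, at 72, 136 and 168 reads in their lowest library.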
